A study of Mus musculus with 8 samples.

Results

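The 9 genes described here encode transcription factors of the muscle lineage: the myogenic regulatory factors Myod1, Myf5, Myf6 and Myog, the Mef2 factors Mef2a, Mef2c and Mef2d, the homeodomain factor Six4, and Pax7, the paired-box factor of satellite cells. They were taken by symbol from the 43239 distinct gene names of the deposited tables, and each was found on 1 entry that it shared with no other name. Their RNA was measured by sequencing in whole quadriceps of 8 female mice aged 6 months, with 1 library per mouse. Of these, 4 were labelled wild type (WT) and 4 were labelled Mss51-/- (KO), a constitutional genotype as far as the labels go. The labels name no treatment, strain, targeting strategy or batch.

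Myogenic regulatory factors are basic helix-loop-helix proteins that pair with E proteins and bind E-boxes in muscle genes. In the textbook account Myf5 and Myod1 commit cells to the lineage, Myog drives their terminal differentiation, and Myf6, also called MRF4, is the family member of mature fibres. Mef2 factors are MADS-box proteins that act with them on fibre genes, and Six4, with Eya cofactors, binds MEF3 sites. Pax7 marks the satellite cells, the resident stem cells that lie beside the fibres and repair them.

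These factors are known to act on each other, and the proximal promoter of Myog is the classical case. It is shown because E-box, Mef2 and MEF3 letters all occur in it, and the promoter of Pax7 is shown because Pax7 was the member whose genotype groups stood apart. Both windows run from 250 bases before to 50 bases after the RefSeq start site (build GRCm38.p6, 5′ to 3′), Myog at chr1:134289754-134290053 on the plus strand and Pax7 at chr4:139832919-139833218 on the minus strand. Capitals mark matches to CANNTG (E-box), CTANNNNTA (Mef2) and TCAGGTTTC (MEF3), searched on both strands.
Myog: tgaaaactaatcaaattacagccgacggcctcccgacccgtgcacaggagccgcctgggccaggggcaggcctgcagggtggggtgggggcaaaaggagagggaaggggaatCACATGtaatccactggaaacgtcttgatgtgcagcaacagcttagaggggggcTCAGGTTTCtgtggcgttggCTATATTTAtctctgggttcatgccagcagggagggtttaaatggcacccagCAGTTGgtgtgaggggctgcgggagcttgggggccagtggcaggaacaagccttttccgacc
Pax7: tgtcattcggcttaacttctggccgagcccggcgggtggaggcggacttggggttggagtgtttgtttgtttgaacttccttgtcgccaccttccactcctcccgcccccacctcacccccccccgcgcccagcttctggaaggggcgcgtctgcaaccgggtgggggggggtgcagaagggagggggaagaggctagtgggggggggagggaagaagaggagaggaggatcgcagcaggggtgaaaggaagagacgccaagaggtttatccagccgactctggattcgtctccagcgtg
In the Myog window the E-boxes lie at bases -138 to -133 and -12 to -7, counted with the start site as 0, the MEF3 letters at -84 to -76 and the Mef2 letters, ctatattta, at -64 to -56. No 2 of these matches overlap. The Pax7 window held none of the 3 motifs. GENCODE M21 begins this minus-strand gene at 139833528, so the window lies inside the gene there, and the sequence before that start was not searched. Of all 32851 promoter windows of this length in the table, 72.3% held an E-box, 21.0% held CTANNNNTA and 0.429% held TCAGGTTTC, so the E-box letters alone are common. The table held windows for 7 of the 9 members. Six4 also held TCAGGTTTC, on the opposite strand at -99 to -91 of the first of its 2 start sites. Overlapping Mef2 letters on both strands lay between -2 and 7 in Mef2a and between -182 and -173 in Myf5. The first start site of Mef2c held 2 E-boxes, and the third an E-box and Mef2 letters. A match is a run of letters and was not tested as a binding site.

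The labels were first checked on the targeted gene. Mss51 stood at 22.9 to 37.0 FPKM (sequenced fragments scaled by transcript length and library size) in the libraries labelled WT and at 201 to 340 FPKM in those labelled KO, the opposite of what the labels lead to, so all directions here are those of the labels. Depth was roughly 38800000 to 59700000 fragments per library, estimated from the low values within preset bounds, outside which no estimate could fall. Fibre markers were abundant, Ckm with a mean of 11376 FPKM in the WT group, but Myh4 was listed at 0 in all 8 libraries and Tnnt3 in 4 of them, so a 0 in these files need not mean absence. Of the 7 fibre markers tested other than Tnnt3, 5 were above 0 and 0 passed (median 0.07). An unadjusted p under 0.05 was found for 2 of the 7, beside 10.3% of all genes tested. A limma model of log2(FPKM + 0.5) over 11878 genes averaging 1 FPKM or more called 6 genes at an adjusted p under 0.05. Each had the higher mean in the KO group, and Mss51 itself was 1 of the 6 (log2 fold change 3.07, limma adjusted p = 0.000643). After rescaling named genes to an equal sum per library the model called 123, of which 63 were higher and 60 lower. Without KO replicate 1 it called 125, of which 113 were higher. KO replicate 1 stood apart in genes of oxidative fibres, chosen here after their values were seen. Myh2, a fast oxidative myosin, stood at 96.6 to 156 FPKM in the WT libraries, at 125 FPKM in KO replicate 1 and at 391 to 494 FPKM in the other KO libraries (log2 fold change 1.33, adjusted p = 0.353, or 1.78 and 0.00647 without KO replicate 1). Mb, myoglobin, stood at 1624 to 1937, at 1838 and at 3645 to 4704 FPKM in the same order (0.95, adjusted p = 0.347, or 1.24 and 0.00647 without KO replicate 1). Over the alternatives the adjusted p lay between 0.00647 and 0.849 for Myh2 and between 0.00647 and 0.9999 for Mb. Their part in the members' differences was not tested, and 0 tested members passed without KO replicate 1. The 4 mice of a group are separate animals, so the spread includes that between mice.

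In adult quadriceps the 9 factors differed widely in level, with Mef2c at the top and Pax7 at the bottom. Mef2c averaged 355 ± 40.5 FPKM (SD, n = 8) and ranked 250th among all names. Myf6 followed at 90.8 ± 11.5 FPKM, then Mef2d at 57.4 ± 4.62 and Mef2a at 38.9 ± 4.62 FPKM. The ranges of these 4 genes and of Myod1 below them did not overlap, and the order Mef2c, Myf6, Mef2d, Mef2a, Myod1 held in 8 of 8 libraries. Myod1 averaged 16.1 ± 5.36 FPKM, Six4 8.25 ± 1.63 and Myog 4.53 ± 1.91. The ranges of Myod1 and Six4 overlapped, as did those of Six4 and Myog, although in each library the gene with the higher mean was the higher. Myf5 (1.47 ± 0.235 FPKM) lay below the whole range of Myog. Pax7 (0.952 ± 0.317 FPKM) was below Myf5 in 7 of 8 libraries, and their ranges overlapped. Fewer cells of a type and less RNA per cell cannot be told apart in whole muscle, which holds fibres, satellite cells and other cells together. FPKM is a level per transcript length, and the lengths used by the authors are not given. In GENCODE M21 Mef2c has 27 coding transcripts of 332 to 6277 bases, and how reads were shared among them is not given, whereas Myod1, Myf5, Myf6 and Myog have 1 coding transcript each.

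**Figure D1:**
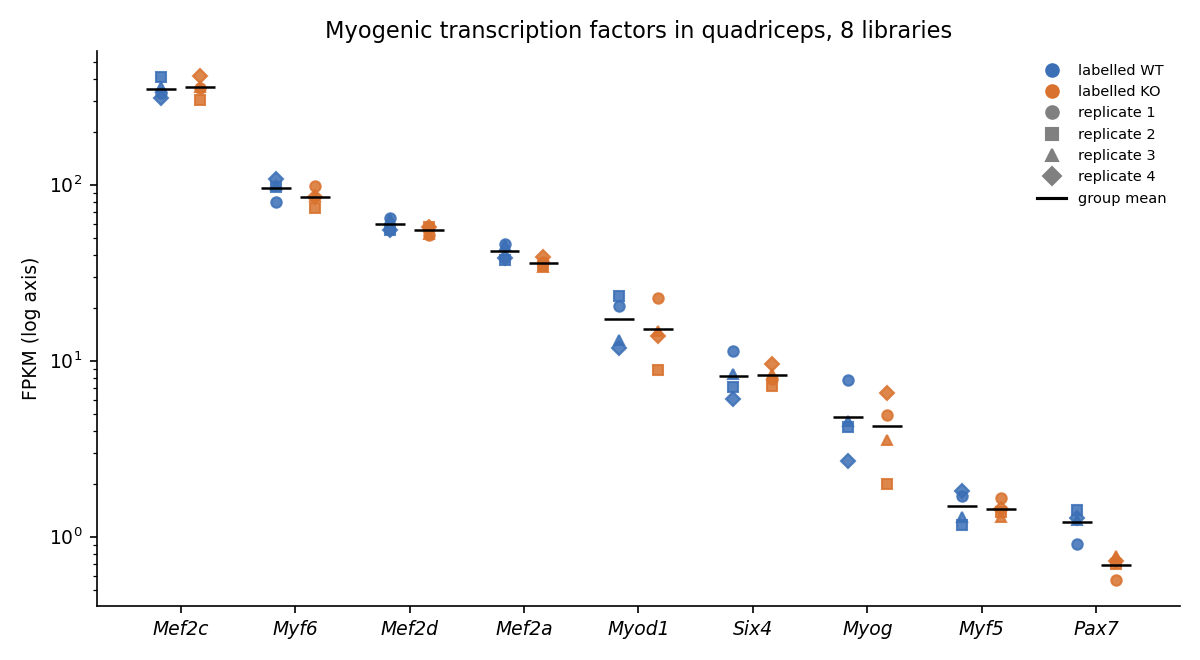
FPKM of the 9 factors on a log axis, with each point 1 library (4 labelled WT, 4 labelled KO, shape for replicate number) and bars for group means. Levels run from 0.564 FPKM for Pax7 to 415 FPKM for Mef2c, and Pax7 is the gene whose groups do not overlap.

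Between the genotype labels, no member passed the adjusted limma threshold, and Pax7 alone had groups that did not overlap. Of the 8 members that reached a mean of 1 FPKM, 0 passed in limma, against 0.0505% of all genes tested. At an unadjusted p under 0.05 there was 1, Mef2a, against 10.3% of all genes tested. Pax7 missed that mean and was read from an exact permutation test that enumerates 70 assignments (two-sided, smallest possible p = 0.0286) and from a limma fit of the 16080 genes averaging 0.1 FPKM or more, which called 0.0373% of them. The groups of 1 of the 9 members did not overlap, against 5.14% of those 16080 genes. Among the 8 tested members 6 stood below 0, with a median log2 fold change (KO minus WT) of -0.14, where the median of all tested genes was 0.02 and 45.6% of them lay below 0.

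**Figure D2:**
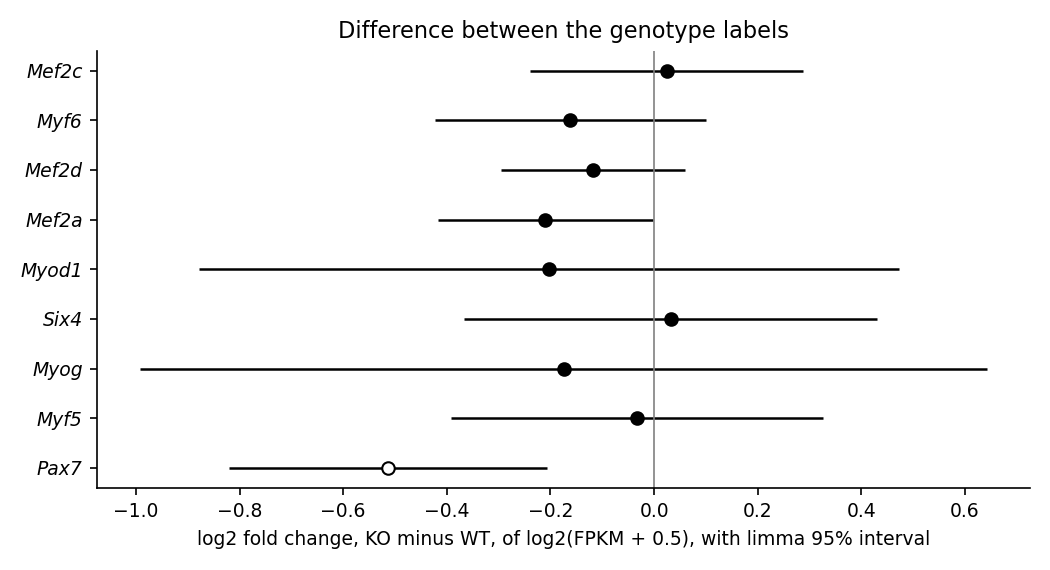
Log2 fold change (KO minus WT) of each factor on the log2(FPKM + 0.5) scale, with the limma 95% interval. Filled points come from the fit of 11878 genes, and the open point, Pax7, from the fit of 16080 genes. Intervals of Myod1 and Myog are the widest, and those of Mef2a and Pax7 lie below 0 before adjustment.

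Myf6, the regulatory factor of mature fibres, was the most abundant of its family in every library. It stood at 79.6, 97.7, 99.1 and 107 FPKM in WT replicates 1 to 4 and at 98.4, 73.4, 86.0 and 84.7 FPKM in KO replicates 1 to 4. KO replicate 2 was below every WT library and the other KO libraries lay within the WT range. The log2 fold change was -0.16 (SE 0.12, limma adjusted p = 0.682), with a 95% interval of -0.42 to 0.10. The gene (ENSMUSG00000035923) lies on chromosome 10 at 107492853 to 107494737 of mm10 on the minus strand, 6718 bases from Myf5.

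Myod1, which commits cells to the lineage and is also made in adult fibres, varied more among mice of 1 group than between groups. Its level was 20.6, 23.2, 13.1 and 11.9 FPKM in WT replicates 1 to 4 and 22.8, 8.86, 14.8 and 13.9 FPKM in KO replicates 1 to 4. Both groups held libraries above 20 FPKM and libraries below 15 FPKM. The difference was -0.20 (SE 0.30, limma adjusted p = 0.851; interval -0.88 to 0.47), and without KO replicate 2 it was 0.02. Its coefficient of variation over the 8 libraries was 33.2%, higher than that of 89.6% of the tested genes. Myod1 (ENSMUSG00000009471) lies on chromosome 7 at 46376474 to 46379099 on the plus strand, inside an entry that the files begin at 46371489.

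Myog, the factor of terminal differentiation, was the most variable member. WT replicates 1 to 4 stood at 7.75, 4.21, 4.57 and 2.68 FPKM and KO replicates 1 to 4 at 4.93, 1.99, 3.57 and 6.54 FPKM. The highest library was labelled WT and the lowest KO, with the rest mixed. The log2 fold change was -0.17 (SE 0.36, limma adjusted p = 0.906), and its interval of -0.99 to 0.64 allows changes of either sign. It turned to 0.07 without WT replicate 1 and to 0.10 without KO replicate 2. The highest Myog value was 3.90 times the lowest, where the same ratio was 1.24 for Mef2d. Myog (ENSMUSG00000026459) lies on chromosome 1 at 134289989 to 134292548 on the plus strand.

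Myf5, the other commitment factor, was low. Its values were 1.71, 1.17, 1.30 and 1.83 FPKM in WT replicates 1 to 4 and 1.67, 1.38, 1.29 and 1.43 FPKM in KO replicates 1 to 4. All 4 KO values fell within the WT range. The difference was -0.03 (SE 0.16, limma adjusted p = 0.962), with an interval of -0.39 to 0.33. By the rough depth estimate these levels rest on 101 to 205 fragments per library. Myf5 (ENSMUSG00000000435) lies on chromosome 10 at 107482908 to 107486134 on the minus strand.

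As shares of the summed FPKM of the 4 regulatory factors, which do not depend on the scaling of a library, Myf6 made up 72.6% to 86.7%, Myod1 9.62% to 18.8%, Myog 2.17% to 7.07% and Myf5 0.927% to 1.61%. The Myf6 share averaged 80.1 ± 6.38% among WT and 80.9 ± 3.68% among KO mice (SD, n = 4; exact permutation p = 0.857, two-sided). For the other 3 shares the exact permutation p lay between 0.600 and 0.914. WT replicate 1 had the lowest Myf6 share and the highest shares of Myod1 and Myog.

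**Figure D3:**
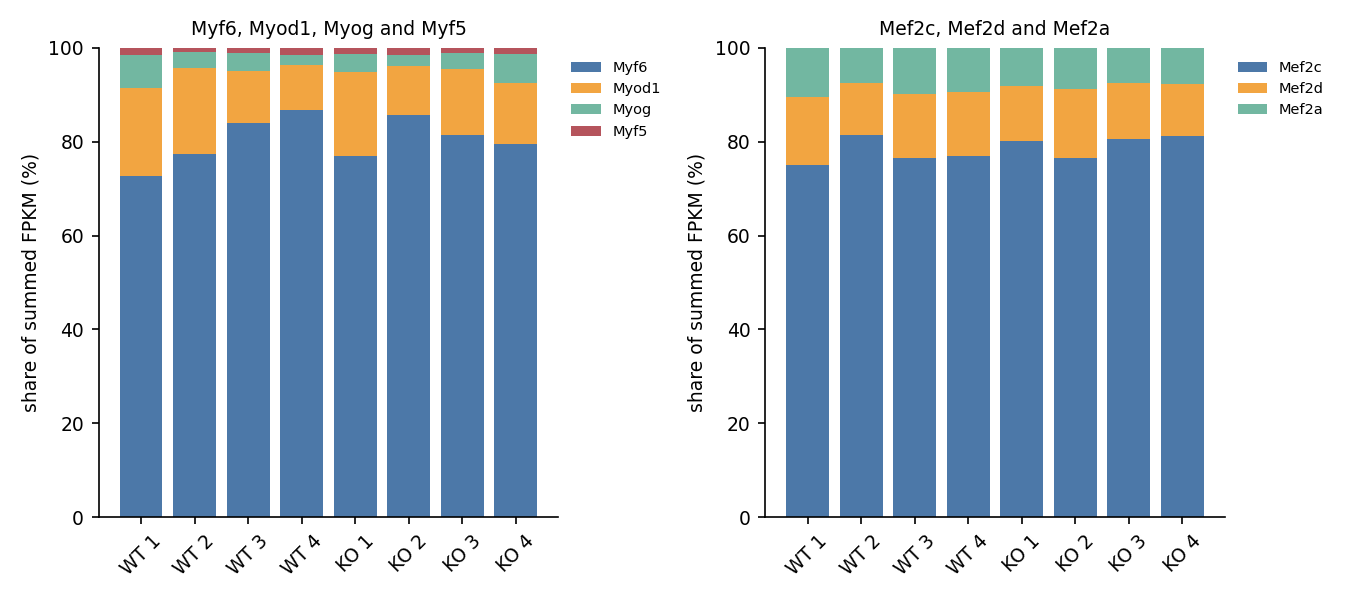
Share of each gene in the summed FPKM of the 4 myogenic regulatory factors (left) and of the 3 Mef2 factors (right), 1 bar per library. Myf6 holds 72.6% to 86.7% and Mef2c 74.9% to 81.4% in every library of both groups.

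Mef2c, the most abundant Mef2 factor and a gene that endothelial and immune cells also express, showed no direction between the labels. It stood at 331, 407, 358 and 312 FPKM in WT replicates 1 to 4 and at 356, 302, 360 and 415 FPKM in KO replicates 1 to 4. The lowest and the highest value both came from libraries labelled KO. The log2 fold change was 0.02 (SE 0.12, limma adjusted p = 0.962; interval -0.24 to 0.29). Endothelial markers had summed levels of 81.7 to 102 FPKM among WT and 74.2 to 137 FPKM among KO libraries, and 0 of 6 passed (4 above 0, median 0.15). Their part in the level of Mef2c was not tested. Mef2c (ENSMUSG00000005583) lies on chromosome 13 at 83504034 to 83667080 on the plus strand.

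Mef2a, a Mef2 factor of striated muscle, had the smallest p of the 8 tested members but did not pass. It stood at 46.2, 37.4, 45.6 and 38.2 FPKM in WT replicates 1 to 4 and at 36.3, 34.6, 34.0 and 39.0 FPKM in KO replicates 1 to 4. WT replicates 1 and 3 were the high libraries, 3 of the 4 KO libraries lay below every WT library, and KO replicate 4 lay inside the WT range. The WT mean was 41.8 ± 4.70 FPKM and the KO mean 36.0 ± 2.21 FPKM (SD, n = 4), a log2 fold change of -0.21 (SE 0.09, interval -0.42 to -0.003; limma adjusted p = 0.483; exact permutation p = 0.0857). Mef2a (ENSMUSG00000030557) lies on chromosome 7 at 67231163 to 67372858 on the minus strand.

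Mef2d, whose muscle isoform acts late in differentiation, was the steadiest member. WT replicates 1 to 4 stood at 64.6, 55.6, 63.7 and 55.4 FPKM and KO replicates 1 to 4 at 52.1, 57.8, 52.7 and 57.4 FPKM. WT replicates 1 and 3 were again the high libraries and the groups overlapped. The difference was -0.12 (SE 0.08, limma adjusted p = 0.654; interval -0.30 to 0.06). The files give 1 value per gene and so no view of isoforms. The coefficient of variation of Mef2d was 8.05%, where the median of all tested genes was 13.9%. Mef2d (ENSMUSG00000001419) lies on chromosome 3 at 88142372 to 88172086 on the plus strand. Within the summed FPKM of the 3 Mef2 factors, the share of Mef2a averaged 9.28 ± 1.28% among WT and 8.04 ± 0.551% among KO mice (SD, n = 4; exact permutation p = 0.171). Without WT replicate 2 that difference moved from -1.23 to -1.83 percentage points (exact permutation p = 0.0286, the smallest possible). Each library was left out in turn, and this p was not adjusted for the number of such tests. The shares of Mef2c (exact permutation p = 0.371) and Mef2d (exact permutation p = 0.486) did not separate the groups either.

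Six4, a homeodomain factor that binds MEF3 sites, was level between the labels. It stood at 11.3, 7.13, 8.45 and 6.03 FPKM in WT replicates 1 to 4 and at 7.86, 7.21, 8.42 and 9.53 FPKM in KO replicates 1 to 4. All KO values lay within the WT range, whose ends were WT replicates 1 and 4. The log2 fold change was 0.03 (SE 0.18, limma adjusted p = 0.967; interval -0.37 to 0.43). Six4 (ENSMUSG00000034460) lies on chromosome 12 at 73099609 to 73113456 on the minus strand. The files place it in 1 locus with Mnat1, a gene of the plus strand that starts 10260 bases away, and list Mnat1 separately at 12.9 to 15.2 FPKM.

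Pax7, the satellite cell factor, was lower in every library labelled KO than in any labelled WT. It stood at 0.908, 1.42, 1.24 and 1.28 FPKM in WT replicates 1 to 4 and at 0.564, 0.701, 0.780 and 0.728 FPKM in KO replicates 1 to 4. The WT library nearest to the KO group was replicate 1. The WT mean was 1.21 ± 0.217 FPKM and the KO mean 0.693 ± 0.0921 FPKM (SD, n = 4), a ratio of 0.573. The difference was -0.51 on the log2(FPKM + 0.5) scale, which understates the change of so low a gene (exact permutation p = 0.0286, the smallest possible). In the limma fit of 16080 genes it had an SE of 0.14, an unadjusted p of 0.00446 and an adjusted p of 0.397, so it did not pass. Of those genes, 1.63% had all KO libraries below all WT libraries. Taking the shortest coding transcript in GENCODE M21, these values rest on roughly 60 to 116 fragments in the WT libraries and 42 to 52 in the KO libraries, and on more if longer transcripts were read. Over the alternatives that gave it, the adjusted p lay between 0.244 and 0.9997. The lower end came without KO replicate 1 and the upper end after rescaling named genes to an equal sum per library. With any 1 KO library left out the exact permutation p was 0.0571, although the groups still did not overlap. Pax7 (ENSMUSG00000028736) lies on chromosome 4 at 139737062 to 139833528 on the minus strand.

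For other genes of satellite cells no difference passed. Of 19 found in the files, 15 were tested and 0 passed in either direction (0 at an unadjusted p under 0.05). The 15 included genes far above Pax7 in level, such as Itgb1 (mean 93.4 FPKM), Cd34 (76.7 FPKM) and Fgfr1 (33.6 FPKM). Such genes may also come from other cells, and Pax3, Calcr, Megf10 and Chrdl2, under the 1 FPKM minimum, were not tested. Among the 15, 11 were below 0 and 4 above, with a median of -0.08 where all tested genes had 0.02. The 3 with the smallest p were Cxcr4, a chemokine receptor (0.39, adjusted p = 0.531), Met, the receptor of hepatocyte growth factor (-0.21, adjusted p = 0.592), and Itgb1, a chain of integrin receptors (-0.14, adjusted p = 0.596). Fgfr4, Megf10 and Pax3, chosen after their values were seen, differed among themselves. Fgfr4, a receptor of fibroblast growth factors, was lower in all KO libraries (1.34 ± 0.117 against 1.05 ± 0.150 FPKM, adjusted p = 0.608). Megf10, a receptor of satellite cells, was higher in all of them (0.378 ± 0.0857 against 0.599 ± 0.121 FPKM). Groups did not overlap, in either direction, for 5.14% of the 16080 genes averaging 0.1 FPKM or more. Pax3, the paralog of Pax7, stood at 0.241 ± 0.0917 against 0.498 ± 0.149 FPKM (SD, n = 4 in each case), with overlapping groups. Megf10 and Pax3 were under the 1 FPKM minimum and have no adjusted p.

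**Figure D4:**
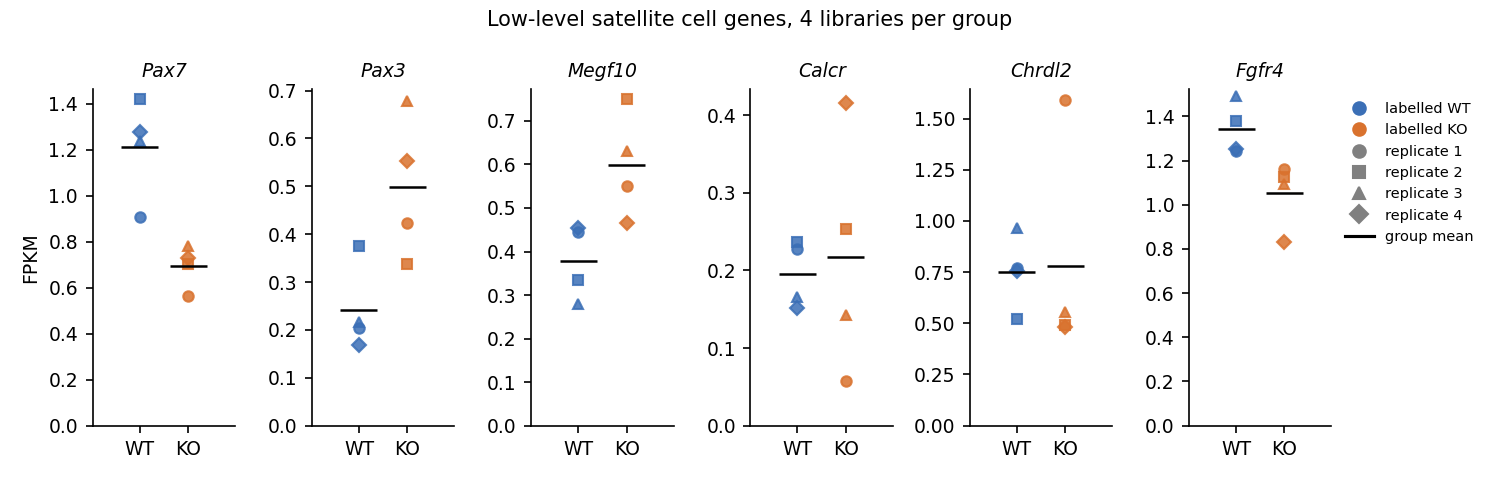
FPKM of Pax7 and 5 other low-level satellite cell genes, 1 point per library with bars for group means. Each panel has its own axis from 0. Pax7 and Fgfr4 are lower and Megf10 is higher in all KO libraries, and the groups of Pax3, Calcr and Chrdl2 overlap.

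Among markers of the other cell types in the muscle, no gene passed. The 4 adipocyte markers (Adipoq, Plin1, Cidec and Lep) were all below 0, with a median of -0.62 and summed levels of 59.5 to 92.2 FPKM among WT and 40.6 to 71.2 FPKM among KO libraries. The 4 tendon markers were also all below 0 (median -0.45, summed levels 63.9 to 131 against 43.1 to 120 FPKM), and the 5 erythroid markers all above (median 0.91, 509 to 1334 against 652 to 3171 FPKM). Fibroadipogenic (4 of 5 below 0), smooth muscle and pericyte (4 of 5 below 0), macrophage (3 of 5 above 0) and Schwann (2 of 4 tested above 0) markers had medians of -0.16, -0.14, 0.11 and 0.0004. Their summed levels were, in the WT against the KO group, 773 to 873 against 661 to 908, 130 to 164 against 107 to 162, 181.1 to 267 against 211 to 320 and 24.3 to 34.0 against 26.1 to 38.7 FPKM. At an unadjusted p under 0.05 there were 3 of 4 adipocyte markers and 1 of 5 of smooth muscle, beside 10.3% of all genes tested. Their part in the Pax7 difference was not tested.

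Among the partners and targets of these factors, 9 lists with the satellite cell list included, 0 genes passed in limma in either direction. E proteins, the binding partners of the regulatory factors, and the Id proteins that block them had 3 of 6 tested members above 0 (median 0.02), with 0 at an unadjusted p under 0.05. The E protein Tcf12 stood at -0.15, Id2 at 0.19 and Id3 at 0.24. Relatives of Six4 and the Eya and Dach families had 6 of 9 below 0 (median -0.08). Of these 9, 3 had an unadjusted p under 0.05, beside 10.3% of all genes tested. The 3 were the cofactors Eya1 (8.95 ± 1.89 against 6.71 ± 0.912 FPKM, -0.38, adjusted p = 0.444) and Eya2 (2.08 ± 0.173 against 1.43 ± 0.231 FPKM, -0.42, adjusted p = 0.357), and Dach2 (1.43 ± 0.236 against 2.22 ± 0.487 FPKM, 0.48, adjusted p = 0.411; SD, n = 4). Coactivators and partners of Myod1 had 10 of 17 below 0 (median -0.02). Of these 17, 3 had an unadjusted p under 0.05, beside the same 10.3% of all genes tested. They were the acetyltransferases Ep300 (-0.26, adjusted p = 0.353) and Kat2b (-0.23, adjusted p = 0.357) and the methyltransferase Prmt5 (-0.22, adjusted p = 0.357).

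A list of Mef2 regulators, made up of class II histone deacetylases, Sik1, calcium-dependent and MAP kinases, calcineurin subunits and Rcan1, together with Mef2b, was below 0 in 13 of 16 (median -0.12), with 0 at an unadjusted p under 0.05. The 3 above 0 were all deacetylases, Hdac4 (0.0058), Hdac5 (0.12) and Hdac7 (0.14), while Hdac9 was below 0. The kinase subunit Camk2a stood at 124 ± 9.68 against 102 ± 19.2 FPKM (SD, n = 4; -0.29, adjusted p = 0.486), Camk2b at -0.16 and the calcineurin subunit Ppp3cb at -0.19. Skeletal genes known as Mef2 targets had 10 of 14 below 0 (median -0.05) and 5 at an unadjusted p under 0.05, in both directions, beside 10.3% of all genes tested. The actin nucleation factor Lmod3 stood at 35.3 ± 2.11 against 45.9 ± 4.80 FPKM (0.37, adjusted p = 0.344) and the cytoskeletal protein Smpx at 195 ± 14.5 against 248 ± 29.7 FPKM (0.34, adjusted p = 0.349). Xirp2, an actin-binding repeat protein, stood at 193.1 ± 13.5 against 160 ± 16.2 FPKM (SD, n = 4; -0.27, adjusted p = 0.370). The other 2 of the 5, outside the naming rule, were Myoz2, a Z-disc protein of slow fibres (0.99, adjusted p = 0.411), and the glycolytic enzyme Pfkm (-0.27, adjusted p = 0.455). Myoz2 stood at 52.1 to 89.2 FPKM in the WT libraries, at 60.4 FPKM in KO replicate 1 and at 160.0 to 195 FPKM in the other KO libraries, and without KO replicate 1 it passed (1.38, adjusted p = 0.0141, range over its alternatives 0.0141 to 0.9999). Without KO replicate 1 Lmod3 also passed (0.44, adjusted p = 0.0371), and over its alternatives the adjusted p lay between 0.0371 and 0.9999.

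Other helix-loop-helix and repressor genes had 8 of 13 below 0 (median -0.06), with 0 at an unadjusted p under 0.05. The smallest p were those of Bhlhe41 (-0.38), Snai2 (-0.38) and Hey1 (0.34), with adjusted p of 0.567, 0.590 and 0.621. Bhlhe41 stood at -0.18 without WT replicate 1, Snai2 at -0.21 without KO replicate 3 and Hey1 at 0.53 without KO replicate 1. Genes of fusion and new fibres had 6 of 12 above 0 (median -0.01). Of these 12, 2 had an unadjusted p under 0.05, beside 10.3% of all genes tested. These 2 were Mustn1 (0.24, adjusted p = 0.471) and the junction protein Jam3 (0.41, adjusted p = 0.452). Cdkn1c, an inhibitor of the cell cycle, stood at 0.19 (adjusted p = 0.583), or -0.02 after rescaling named genes to an equal sum per library. The embryonic and neonatal myosins Myh3 and Myh8, hallmarks of regenerating fibres, were at 0.212 ± 0.0451 against 0.244 ± 0.0502 FPKM and 0.268 ± 0.0694 against 0.260 ± 0.0214 FPKM (SD, n = 4; exact permutation p = 0.343 and 0.943, two-sided). Both lay under the 1 FPKM minimum of the limma fit. Genes that respond to denervation, among them targets of the regulatory factors, had 8 of 10 above 0 (median 0.08) and 0 at an unadjusted p under 0.05. Gadd45a stood at 0.22 (adjusted p = 0.561) and the acetylcholine receptor subunits Chrna1 at 0.26 (adjusted p = 0.590) and Chrnb1 at 0.23 (adjusted p = 0.727). After rescaling to an equal sum these 3 stood at 0.012, 0.078 and 0.025, and Chrnb1 at 0.063 without KO replicate 2.

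Across the 8 libraries 28 pairs of the 8 tested members were compared, and 2 had an exact permutation p under 0.05 by Pearson correlation of log2(FPKM + 0.5). Neither held after Benjamini-Hochberg adjustment over the 28 (exact permutation, adjusted p = 0.193 for each r and 0.688 for each rho). Myog and Six4 had the steadier relation (r = 0.82, exact permutation p = 0.0138; Spearman rho = 0.79, exact permutation p = 0.0279; n = 8). Without the 2 libraries farthest from the median of Myog, r was 0.83. Of 11877 other tested genes, Six4 ranked 133rd by closeness to Myog. Mef2a and Mef2d had r = 0.88 (exact permutation p = 0.00918) and rho = 0.69 (exact permutation p = 0.0694; n = 8). Without WT replicates 1 and 3 that r was 0.34, so the relation rests on those libraries. Among the regulatory factors Myod1 and Myog had r = 0.66 (exact permutation p = 0.0731, adjusted 0.544) and rho = 0.55 (exact permutation p = 0.171, adjusted 0.688; n = 8), and Myf6 and Myog had r = -0.01. All points share the same 8 libraries, and 4 libraries per group are too few for values within a group.

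**Figure D5:**
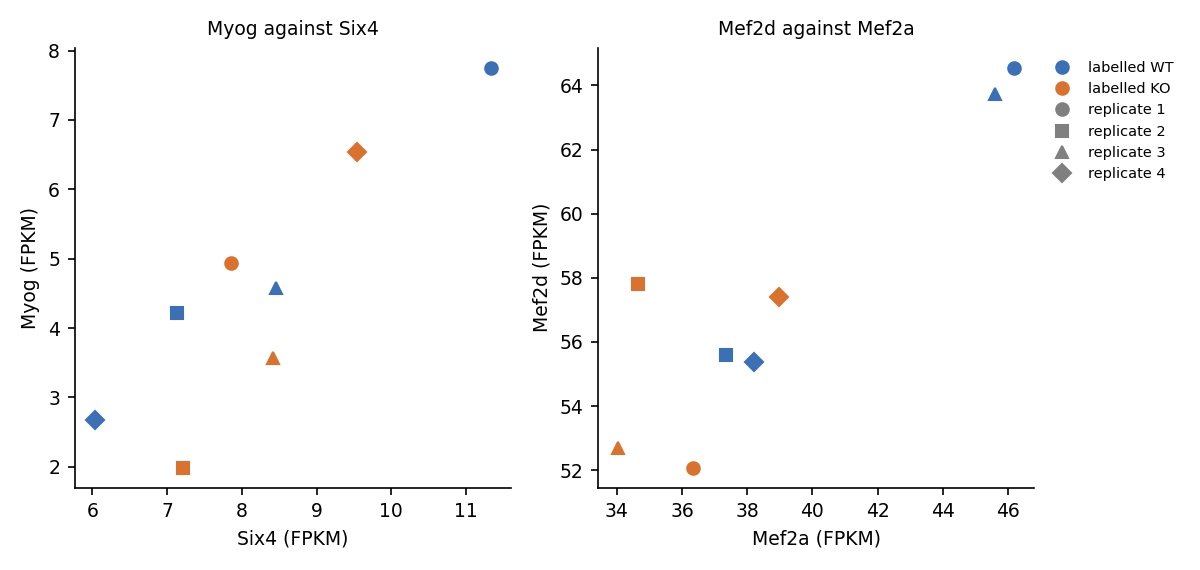
Myog against Six4 (left) and Mef2d against Mef2a (right), in FPKM, with each point 1 library, colour for group and shape for replicate number. Pearson's r on the log2 scale is 0.82 for Myog and Six4 and 0.88 for the Mef2 genes, where WT replicates 1 and 3 stand apart.

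For each tested member the named genes with the closest pattern over the 8 libraries were listed, 2 for each but Mef2c, as a description that picks the highest of many values. Myod1 was closest to the entry that joins Capn3, a protease of the sarcomere, with Ganc (r = 0.99, rho = 0.95, or r = 0.98 without the 2 libraries farthest from the median of Myod1) and to Zbtb18 (r = 0.94). Myog was closest to Cpeb2, a factor of translation (r = 0.99, rho = 0.98, or r = 0.99 without 2 libraries), and to Ss18l1 (r = 0.98). For Myf6 these were Pnpla8, a phospholipase (r = 0.97), and Lvrn (r = 0.94), and for Myf5 Rad17 (r = 0.97) and Il4ra (r = 0.96). Mef2a was closest to Mast4 and Cdc27 (r = 0.98 each), Mef2c to Mocs1 (r = 0.96), Mef2d to Sgcd, a sarcoglycan (r = 0.98), and Uba1 (r = 0.97), and Six4 to Blcap (r = 0.98) and Zscan30 (r = 0.97).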

How the data were processed

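Each library came as 1 table of FPKM per gene, as deposited by the authors and per the file headers, with no counts. The submitters' processing notes name the build mm10 and, without roles, Cufflinks 2.2.1, Bowtie2 2.2.6, TopHat2 2.1.1 and FastQC. Annotation, filters and strand setting are not given in the sources used here, so overlapping genes on opposite strands are uncertain. Per the labels' protocols, mRNA was selected on oligo(dT) beads and read as pairs.

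Entries without a name (2379 of 46036, with 65.8% to 93.2% of summed FPKM) were left out, and of repeated names the entry with the highest mean was kept. FPKM were analysed as log2(FPKM + 0.5) with limma 3.58.1 in R 4.3.3 (genotype only, mean trend, two-sided), over 11878 genes averaging 1 FPKM or more, with Benjamini-Hochberg adjustment and a threshold of 0.05. Intervals of 95% are limma's, unadjusted. Single values and shares used exact permutation tests. Depth was estimated from genes with 1 transcript, taking the most crowded low value of FPKM times length less 200 bases as 1 fragment within preset bounds. Tested on simulated data with 200 genes changed among 11878, the fit made 3 false calls. It recovered 44.8%, 80.6% and 98.5% of changes by factors of 1.5, 2 and 4. The simulated noise was independent between genes, so differences shared across a library were not covered. Pax7, under the 1 FPKM minimum, was not covered either. These recovered shares therefore need not hold for the members.

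Members and gene lists were chosen with earlier results of these data known. Named were all members, from each list the 3 tested genes with the smallest p and any past the threshold, the 2 closest genes to each tested member (predicted genes left out), and leading markers. A few other genes were named after their values were seen. Of the list genes, those not found by name were not analysed here. Some results that the naming rule covers are not reported here. Alternatives were pseudocounts, filters, scalings, variance models, the sum of repeated names, a replicate block and leaving out single libraries. The fits of 16080 genes with a library left out, a block, TPM or another pseudocount were added after seeing the data. The labels do not say whether replicate numbers pair mice. Mice of the same number showed no shared deviation (correlation of deviations -0.0809 to 0.00934), which does not settle whether they were paired. Promoters came from RefSeq (GRCm38.p6) and gene positions from GENCODE M21.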

Additional observations from a re-analysis of the deposited data

Results flagged for a closer look

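The share of Mef2d in the summed FPKM of the 3 Mef2 factors was 14.6% in KO replicate 2, while the other KO libraries stood at 11.7%, 11.8% and 11.2%. That library's gap to its nearest neighbour was 0.837 of the group's whole range, above Dixon's 95% critical value for 4 samples. It was the only such value among 32 groups of values examined (FPKM of the 9 members and 7 shares, in each genotype group), where chance alone flags about 1 in 20 groups.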

How the results depend on the processing

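No member passed the limma threshold under any of the alternatives run. The count over all tested genes was 123 after rescaling named genes to an equal sum per library (TPM), 0 with the replicate block, and 4 to 125 with 1 library left out, 125 being without KO replicate 1 and at most 8 without any other. The cause was not tested. TPM multiplied KO replicate 4 by 0.512 and WT replicate 3 by 0.766, the libraries with the highest summed FPKM of named genes. It raised every other library. The median-ratio factors of the libraries lay between 0.97 and 1.05, so the typical gene showed no such spread in level. TPM moved the median log2 fold change of all tested genes from 0.02 to -0.18. Relative to that median Mef2c stood at -0.01, Six4 at 0.01, Mef2a at -0.25 and Pax7 at -0.47. TPM reversed Mef2c (-0.19), Six4 (-0.17) and Cdkn1c (-0.016). Mef2c was also below 0 after quantile normalization (-0.090) and scaling by median ratios (-8.69e-05). Same-numbered mice did not deviate together, and the block changed no call of a member.

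With 1 library left out, fold changes ran from -0.42 to 0.017 for Myod1, -0.12 to 0.044 for Myf5, -0.40 to 0.10 for Myog, -0.049 to 0.10 for Mef2c and -0.10 to 0.19 for Six4. Pax7 stayed below 0 (-0.60 to -0.45). Differences in share ran, in percentage points, from -1.76 to 2.95 for Myf6, -2.29 to 0.77 for Myod1, -0.93 to 0.80 for Myog and -0.0092 to 0.20 for Myf5. Of the 27 genes named from lists by the rule, 24 moved by over 1.5 times under TPM and 13 with some library left out. Without counts, the low levels of Pax7 and Myf5 carry no exact counting error.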
